A study of Mus musculus with 15 samples.

Results

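The 10 genes described here are the Notch receptors *Notch1*, *Notch2*, *Notch3* and *Notch4*, the ligands *Jag1*, *Jag2* and *Dll1*, and the target genes *Hes1*, *Hey1* and *Heyl*. They were chosen by name, as exact matches of the gene symbol, and all 10 were present among the 21110 genes listed for every mouse. RNA was taken from the ears of 15 C57BL/6 mice in 4 groups. These were wild-type (WT) mice 2 weeks after birth (n = 4), *Socs3* cKO mice 2 weeks after birth (n = 4), WT mice 10 weeks after birth (n = 3) and *Socs3* cKO mice 10 weeks after birth (n = 4). *Socs3*, an intracellular inhibitor of JAK and STAT3 signalling, is knocked out in the latter animals under the control of keratin 5. Keratin 5 marks the basal keratinocytes of the epidermis and the outer root sheath of the hair follicle, so the other cells of the ear are expected to keep the gene. Levels are given as FPKM, the reads on a gene divided by its length and by the mapped reads of the library, scaled to a kilobase and to a library of fixed size. Levels of genes of different length are compared on this scale, with the limit that the libraries differed in their dependence on transcript length and GC content.

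Notch signalling passes between touching cells. A ligand of the Jagged or Delta family on one cell binds a Notch receptor on its neighbour, the receptor is cut by an ADAM protease and by gamma-secretase, and the freed intracellular part enters the nucleus and joins Rbpj and a Mastermind protein on the promoters of targets such as the Hes and Hey genes. In skin, *Notch1* and *Notch2* with *Jag1*, *Jag2* and *Hes1* are known from the differentiation of the epidermis and from the hair follicle, whereas *Notch3* and *Heyl* are known from pericytes and vascular smooth muscle, *Notch4* from endothelium and *Hey1* from endothelium and dermal cells.

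The samples are labelled keratinocytes as their source and ear as their tissue, and the RNA was extracted from ear specimens. Basal keratinocyte markers summed to between 4567 and 7869 FPKM per mouse, and markers of endothelium, of pericytes and smooth muscle, of fibroblasts, of macrophages and of skeletal muscle were present in all 4 groups. In such bulk RNA, fewer cells of a type and less RNA per cell cannot be told apart. *Socs3* itself, measured over the whole gene and not over the deleted part, was between 9.71 and 10.3 FPKM in WT and between 1.25 and 12.6 in *Socs3* cKO mice at 2 weeks, and between 2.02 and 4.81 in WT and between 29.8 and 47.7 in *Socs3* cKO mice at 10 weeks. The genotype is therefore taken from the labels, and the groups below are those labelled WT and *Socs3* cKO. Sequencing depth, estimated from the most frequent low value of FPKM times transcript length, was between 11800000 and 16700000 mapped reads per mouse. At that depth the lowest level of each member corresponded to an estimated 12 reads for *Notch4*, 26 for *Heyl*, 46 for *Hey1* and 51 or more for the other genes. The 3 WT libraries at 10 weeks had 2087, 3176 and 1414 genes at 0 FPKM, whereas every other library had between 4044 and 4423. These WT mice enter the genotype comparison at 10 weeks, the interaction and the change with age in WT mice. The part of this library difference in those results was not tested. The first *Socs3* cKO mouse at 2 weeks stood apart from the other mice of its group, as described beside the results that rest on it.

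The regulatory sequence before the start of 4 of the genes is shown because these 4 were called lower in WT ears at 10 weeks than at 2 weeks, by the threshold given with that comparison, and because an upstream window was available for them. Each line is the 250 bases before the transcription start in RefSeq on GRCm38.p6, 5′ to 3′ on the strand of the gene. The windows lie at chr17:32166891-32167140 (*Notch3*, minus strand), chr17:34564045-34564294 (*Notch4*, plus strand), chr2:137116521-137116770 (*Jag1*, minus strand) and chr17:15376933-15377182 (*Dll1*, minus strand, the outer of 2 starts). Capitals mark CACNAG, the N box bound by Hes proteins, or its reverse complement CTNGTG.
Notch3: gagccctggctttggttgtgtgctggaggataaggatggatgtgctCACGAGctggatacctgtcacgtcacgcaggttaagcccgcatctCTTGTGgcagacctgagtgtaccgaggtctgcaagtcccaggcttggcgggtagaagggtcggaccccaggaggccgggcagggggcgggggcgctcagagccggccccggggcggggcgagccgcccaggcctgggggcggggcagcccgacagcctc
Notch4: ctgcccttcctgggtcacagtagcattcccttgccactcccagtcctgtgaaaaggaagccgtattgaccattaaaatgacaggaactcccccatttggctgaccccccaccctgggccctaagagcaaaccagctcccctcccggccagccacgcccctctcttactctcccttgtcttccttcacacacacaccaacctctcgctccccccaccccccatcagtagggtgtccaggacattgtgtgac
Jag1: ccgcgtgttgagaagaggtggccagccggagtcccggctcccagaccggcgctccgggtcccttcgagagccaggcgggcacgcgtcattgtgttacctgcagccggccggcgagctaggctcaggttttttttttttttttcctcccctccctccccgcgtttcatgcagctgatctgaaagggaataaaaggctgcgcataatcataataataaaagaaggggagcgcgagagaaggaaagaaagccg
Dll1: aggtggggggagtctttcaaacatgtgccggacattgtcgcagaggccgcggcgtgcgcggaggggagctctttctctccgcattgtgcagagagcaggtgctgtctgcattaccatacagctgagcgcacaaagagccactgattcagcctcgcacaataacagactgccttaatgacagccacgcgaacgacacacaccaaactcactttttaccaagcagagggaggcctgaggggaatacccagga
RefSeq windows were matched for 7 of the 10 genes, the receptors and the ligands, and none was read for *Hes1*, *Hey1* and *Heyl*. An N box on either strand was found at 2 places before *Notch3*, at 1 before *Notch1* and at 1 before *Notch2*, and 36.7% of all 32851 mouse windows of the same length held one. The Rbpj core TGGGAA and the E box CACGTG, both searched on both strands, were not among these letters for any of the 7 genes, and 21.6% and 6.02% of all windows held them. The window of *Jag2* was 87.2% G and C, against a median of 52.4% over all windows.

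The receptors lie on 3 chromosomes of the mm9 build that the authors aligned to: *Notch1* at chr2:26313423-26372183 on the minus strand, *Notch2* at chr3:97817461-97954290 on the plus strand, *Notch3* at chr17:32257765-32303825 on the minus strand and *Notch4* at chr17:34701213-34725448 on the plus strand. *Notch1*, the main receptor of keratinocytes, was 27.6, 25.7, 21.3 and 22.4 FPKM in the 4 WT mice at 2 weeks and 1.35, 12.6, 6.92 and 9.24 in the 4 *Socs3* cKO mice. At 10 weeks it was 8.64, 9.18 and 6.97 in WT and 11.5, 14.4, 12.4 and 6.01 in *Socs3* cKO mice. Every WT mouse at 2 weeks was above every mouse of the other 3 groups, and the 10-week groups overlapped. *Notch2* was 13.4, 12.6, 11.0 and 12.3 FPKM in WT and 4.58, 12.7, 8.55 and 9.34 in *Socs3* cKO mice at 2 weeks, and 5.78, 7.70 and 4.60 in WT and 11.2, 12.7, 14.1 and 7.05 in *Socs3* cKO mice at 10 weeks. It was the only receptor whose genotype groups overlapped at 2 weeks, and 3 of the 4 *Socs3* cKO mice at 10 weeks were above every WT mouse of that age.

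*Notch3* was 19.7, 21.3, 20.2 and 21.6 FPKM in WT mice at 2 weeks and 0.470, 9.05, 7.78 and 7.75 in *Socs3* cKO mice. At 10 weeks it was 2.10, 3.58 and 1.55 in WT and 6.16, 6.69, 6.75 and 4.50 in *Socs3* cKO mice. The genotypes did not overlap at either age, and their order was opposite at the 2 ages. *Notch4*, a receptor of endothelium, was the least abundant of the 10 genes in each group. It was 1.70, 2.01, 1.86 and 1.86 FPKM in WT and 0.136, 0.812, 0.884 and 0.731 in *Socs3* cKO mice at 2 weeks. At 10 weeks all 7 mice were between 0.427 and 0.619 FPKM, below the minimum of 1 FPKM used for testing.

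Among the ligands, *Jag1* lies at chr2:136907192-136942380 and *Jag2* at chr12:114146801-114167706 (mm9, both minus strand), and *Dll1* at chr17:15504318-15513836 (minus strand). *Jag1*, mutated in Alagille syndrome, was 16.0, 14.4, 12.3 and 14.7 FPKM in WT and 4.06, 10.4, 4.63 and 5.26 in *Socs3* cKO mice at 2 weeks. It was 6.14, 7.85 and 4.49 in WT and 8.73, 8.50, 10.2 and 4.08 in *Socs3* cKO mice at 10 weeks, where the genotypes overlapped. *Jag2*, the other Jagged ligand, was 38.4, 36.7, 35.5 and 33.5 FPKM in WT and 2.32, 19.6, 18.2 and 19.3 in *Socs3* cKO mice at 2 weeks. The other 3 of these 4 *Socs3* cKO mice lay close together, far above the first. At 10 weeks *Jag2* was 8.76, 16.3 and 6.00 in WT and 21.4, 27.5, 16.0 and 15.1 in *Socs3* cKO mice, so that 1 WT mouse was above 2 of the *Socs3* cKO mice. *Dll1*, a Delta ligand carried by some basal keratinocytes, was 10.5, 10.1, 8.72 and 9.32 FPKM in WT and 2.18, 6.20, 3.66 and 3.71 in *Socs3* cKO mice at 2 weeks. At 10 weeks it was 3.82, 5.22 and 3.20 in WT and 6.54, 7.02, 6.74 and 4.24 in *Socs3* cKO mice, and only the last of these fell within the WT range.

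Among the targets, *Hes1* lies at chr16:30064470-30067882 (plus strand), *Hey1* at chr3:8663362-8667039 (minus strand) and *Heyl* at chr4:122910799-122927118 (plus strand). *Hes1*, a basic helix-loop-helix repressor, was 33.2, 36.5, 37.8 and 44.3 FPKM in WT and 5.38, 22.0, 22.9 and 16.3 in *Socs3* cKO mice at 2 weeks. It was 36.6, 36.9 and 33.9 in WT and 27.1, 26.9, 19.7 and 24.1 in *Socs3* cKO mice at 10 weeks. *Hes1* was thus higher in every WT mouse than in every *Socs3* cKO mouse at both ages, and the WT mice of the 2 ages overlapped. *Hey1*, a repressor of the Hairy-related family, was 4.69, 5.23, 4.93 and 4.75 FPKM in WT and 2.65, 3.53, 3.01 and 2.55 in *Socs3* cKO mice at 2 weeks. At 10 weeks it was 1.67, 1.66 and 2.24 in WT and 3.94, 3.66, 2.68 and 3.71 in *Socs3* cKO mice, so its genotypes stood in opposite order at the 2 ages without overlap. *Heyl*, a further member of that family, was 7.81, 8.22, 7.82 and 8.26 FPKM in WT and 0.419, 2.30, 2.04 and 1.12 in *Socs3* cKO mice at 2 weeks. At 10 weeks it was 0.463, 0.736 and 0.440 in WT and 1.30, 1.08, 1.02 and 0.494 in *Socs3* cKO mice, low in both.

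**Figure D1:**
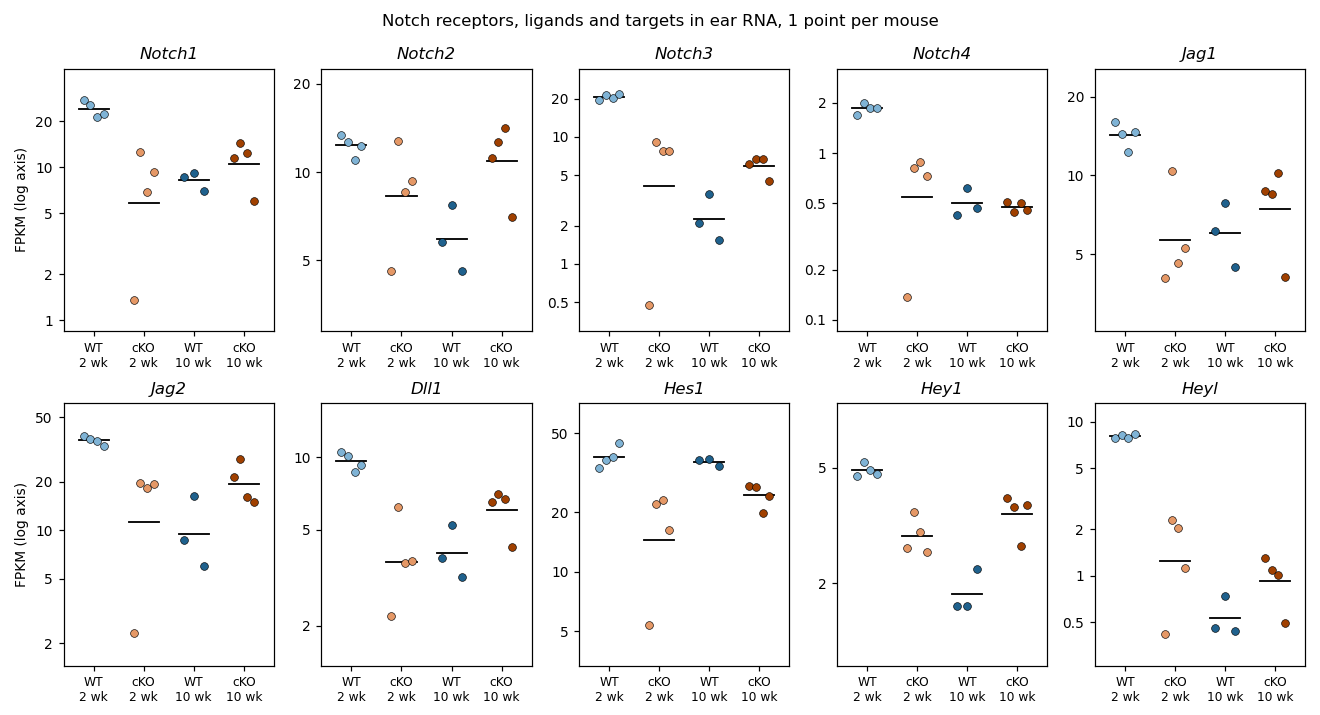
FPKM (log axis) of each of the 10 genes in each mouse, by genotype and age; horizontal lines are group means taken on the log2 scale. WT mice at 2 weeks lie above all other mice for every gene but *Notch2* and *Hes1*, and the lowest *Notch3* point, 0.470 FPKM, is the first *Socs3* cKO mouse at 2 weeks.

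Ranked by mean FPKM, *Hes1* came first and *Jag2* second in each of the 4 groups, and *Heyl* and *Notch4* took the last places in 3 of them. In WT mice at 2 weeks the order was *Hes1* (38.0 ± 4.65, SD, n = 4), *Jag2* (36.0 ± 2.08), *Notch1* (24.2 ± 2.92), *Notch3* (20.7 ± 0.902), *Jag1* (14.4 ± 1.56), *Notch2* (12.4 ± 0.998), *Dll1* (9.66 ± 0.795), *Heyl* (8.03 ± 0.247), *Hey1* (4.90 ± 0.240) and *Notch4* (1.86 ± 0.126). Neighbours overlapped for *Hes1* and *Jag2*, for *Notch1* and *Notch3*, and for *Jag1* and *Notch2*. In WT mice at 10 weeks *Hes1* (35.8 ± 1.63, n = 3) stood clear of *Jag2* (10.3 ± 5.31), and from *Jag2* down to *Hey1* (1.86 ± 0.332) each gene overlapped the next. In *Socs3* cKO mice at 2 weeks only *Hey1* (2.94 ± 0.443, n = 4) and *Heyl* (1.47 ± 0.865) did not overlap as neighbours. In *Socs3* cKO mice at 10 weeks *Notch2* (11.3 ± 3.04) and *Notch1* (11.1 ± 3.57) ranked side by side and overlapped, and *Notch3* (6.03 ± 1.05) came after the ligands.

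The make-up of each role was described as the share of its summed FPKM. The 4 receptors summed to 59.1 ± 3.65 FPKM in WT mice at 2 weeks, 23.2 ± 12.1 in *Socs3* cKO mice at 2 weeks, 17.2 ± 3.75 in WT mice at 10 weeks and 28.8 ± 7.52 in *Socs3* cKO mice at 10 weeks. *Notch3* made up 35.1% ± 2.69 of the receptor sum in WT mice at 2 weeks but 13.6% ± 2.98 in WT mice at 10 weeks. The corresponding *Notch3* shares in *Socs3* cKO mice were 23.4% ± 11.2 and 21.4% ± 2.46. *Notch2* took the opposite course in WT mice, from 20.9% ± 0.572 to 34.8% ± 1.49, and was 44.0% ± 17.4 in the younger and 39.0% ± 2.00 in the older *Socs3* cKO mice. *Notch2* made up 70.1% of the sum in the first *Socs3* cKO mouse at 2 weeks and between 34.5% and 36.1% in the other 3. *Notch2* has the lowest GC content of the receptors (53.6%, against 57.1% to 61.2%), and this mouse had the steepest fall of values with GC content, whose part in the share was not tested. The group means of the ligand shares moved less: *Jag2* was the largest ligand in each, between 48.7% and 60.0% of the sum. The first *Socs3* cKO mouse at 2 weeks had the opposite order, with *Jag2* at 27.1% and *Jag1* at 47.4%. In the other 3 mice of that group *Jag2* was between 54.1% and 68.8%. Among the targets, *Heyl* was 15.9% ± 1.17 of the sum in WT mice at 2 weeks and 1.42% ± 0.390 in WT mice at 10 weeks, and 6.53% ± 1.52 and 3.38% ± 1.16 in *Socs3* cKO mice. *Hes1* was 93.7% ± 0.927 of the target sum in WT mice at 10 weeks, the highest of the 4 groups.

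**Figure D2:**
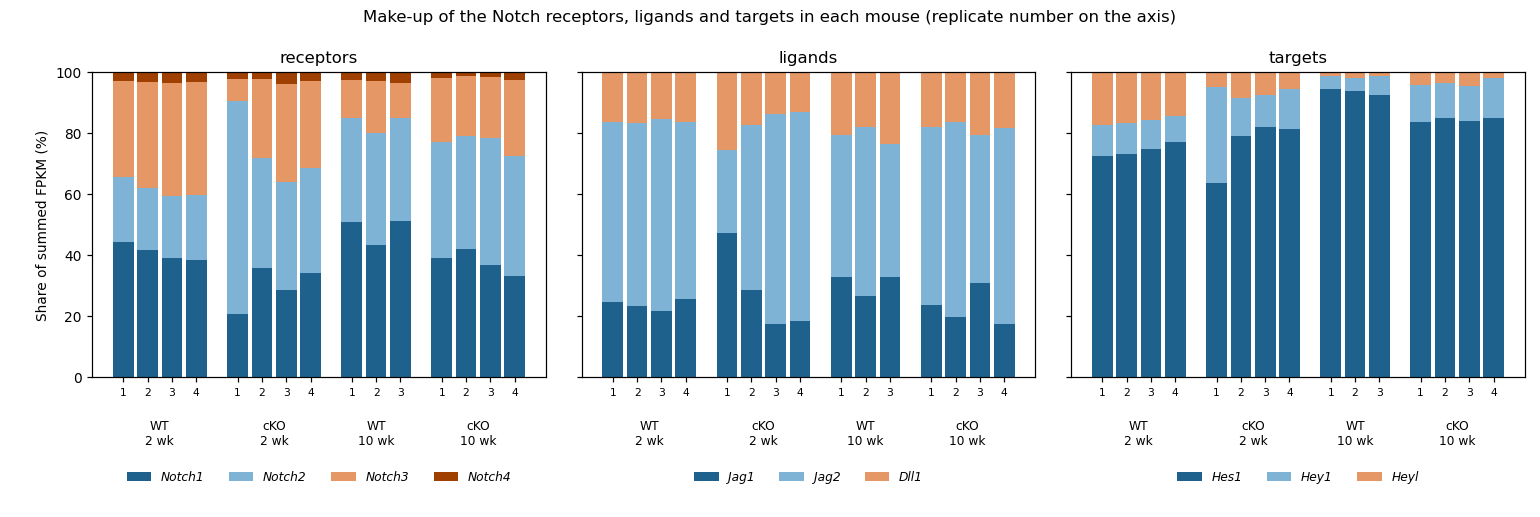
Share (%) of each gene in the summed FPKM of the receptors, the ligands and the targets, 1 bar per mouse with its replicate number. The *Notch3* share falls from 35.1% to 13.6% and the *Heyl* share from 15.9% to 1.42% between WT mice of 2 and 10 weeks, and the first *Socs3* cKO mouse at 2 weeks has 70.1% *Notch2*.

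To ask how the genes differed between the genotypes at 2 weeks, log2(FPKM + 0.1) of the 8 mice was fitted with limma across 13524 genes. A gene was called when its p adjusted by the Benjamini-Hochberg method was below 0.01 and its log2 fold change was at least 1 in size. All 10 Notch genes were lower on average in the mice labelled *Socs3* cKO, although *Notch2*, *Notch4* and *Jag2* turned when the length and GC trend described below was removed, and 3 were called lower: the ligands *Jag1* (log2 fold change −1.32, SE 0.28, adjusted p = 0.00828) and *Dll1* (−1.36, SE 0.28, adjusted p = 0.00747) and the target *Heyl* (−2.60, SE 0.44, adjusted p = 0.00338). Of all genes tested, 7.19% were called lower, 7.24% higher and 14.4% in either direction. The median difference of the 10 genes was −1.48, beside −0.21 over all genes, which leaves −1.27 relative to the latter. *Hey1* passed the p but not the size (−0.73, SE 0.16, adjusted p = 0.00888). *Notch1* (−2.04, SE 0.60, adjusted p = 0.0248), *Notch3* (−2.29, SE 0.82, adjusted p = 0.0466), *Notch4* (−1.59, SE 0.44, adjusted p = 0.0199), *Hes1* (−1.37, SE 0.43, adjusted p = 0.0293) and *Jag2* (−1.66, SE 0.64, adjusted p = 0.0580) had differences at least as large as those of *Jag1* and *Dll1* with wider errors, and were not called. *Notch2* had the smallest difference (−0.57, SE 0.28, adjusted p = 0.121). At an adjusted p below 0.05 with no limit on size, 8 of the 10 were lower, as were 26.1% of all genes. In 9 of the 10 genes every *Socs3* cKO mouse was below every WT mouse, each with p = 0.0286 in a two-sided exact permutation test, the smallest p that 4 against 4 mice allow. Among all genes tested, 33.2% had groups that did not overlap in that direction. These counts include *Notch4*, which passed the filter at 2 weeks only through the WT mice, where it is high.

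The first *Socs3* cKO mouse at 2 weeks widened these errors. Without it, 6 of the 10 genes were called lower, with log2 fold changes of −1.36 for *Notch1*, −1.33 for *Notch3*, −1.11 for *Notch4*, −1.16 for *Jag1*, −1.12 for *Dll1* and −2.14 for *Heyl* and adjusted p from limma of 0.000523, 1.89e-05, 0.000469, 0.00462, 0.00132 and 0.000103. *Notch4*, among these 6, again entered the test through the WT mice alone. Fits that left out 1 mouse called between 859 and 3348 of all genes at this age, in either direction, beside 1951 in the fit of all mice. The count of 3348 was that without the second *Socs3* cKO mouse. Without the first, 34.6% of all called genes were higher, the lowest share of these fits. The share of all genes called lower without it is not given, so no excess is read from the 6. Without the first mouse *Hes1* was −0.90 (adjusted p = 0.00102) and *Jag2* −0.92 (adjusted p = 5.44e-05). Leaving out any 1 of the 4 WT mice at 2 weeks ended the calls of *Jag1* (adjusted p between 0.0215 and 0.0297), *Dll1* (between 0.0220 and 0.0273) and *Heyl* (between 0.0129 and 0.0135). Without the third *Socs3* cKO mouse the adjusted p was 0.0263 for *Jag1* and 0.0226 for *Dll1*, and without the fourth it was 0.0238 for *Jag1*, 0.0207 for *Dll1* and 0.0121 for *Heyl*.

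At 10 weeks the same question was asked of 7 mice and 13105 genes. The receptor *Notch3* was called higher in the mice labelled *Socs3* cKO (log2 fold change 1.35, SE 0.29, adjusted p = 0.00726), and it was the only 1 of the 9 genes tested that was called. Of all genes tested, 12.5% were called higher, 2.43% lower and 14.9% in either direction. *Notch4* was below the filter of 1 FPKM in 3 mice, and *Heyl* passed it only through *Socs3* cKO mice (0.69, SE 0.37, adjusted p = 0.161). Of the other receptors, *Notch2* was 0.88 (SE 0.27, adjusted p = 0.0307) and *Notch1* 0.36 (SE 0.29, adjusted p = 0.346). The ligands *Jag2* (1.02, SE 0.33, adjusted p = 0.0364), *Dll1* (0.58, SE 0.25, adjusted p = 0.0958) and *Jag1* (0.31, SE 0.33, adjusted p = 0.469) were not called. The median of all genes was 0.31 at this age, and relative to it *Notch1* was at 0.04 and *Jag1* at 0.00, so no direction is given for these 2 genes. The targets *Hes1* and *Hey1* stood on opposite sides: *Hes1* was −0.56 (SE 0.17, adjusted p = 0.0257), with each *Socs3* cKO mouse below each WT mouse, and *Hey1* was 0.88 (SE 0.24, adjusted p = 0.0176), with each above. Neither was called. At an adjusted p below 0.05 with no limit on size, 4 Notch genes were higher (28.7% of all genes) and 1 lower (8.96%). For these 2 genes and *Notch3* the exact permutation test gave p = 0.0571, the smallest that 3 against 4 mice allow. Groups that did not overlap were found for 31.2% of all genes in the higher and 11.1% in the lower direction. The call of *Notch3* was lost without WT replicate 1 (adjusted p = 0.0292) or 3 (0.0315), and without *Socs3* cKO replicate 1 (0.0205), 2 (0.0219) or 3 (0.0206), with log2 fold changes between 1.09 and 1.33. Without WT replicate 2, *Jag2* was also called higher (1.41, adjusted p = 0.00542), and without *Socs3* cKO replicate 4, *Notch2* was (1.08, adjusted p = 0.00740).

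The change of the genotype difference between the ages was tested as an interaction over all 15 mice and 13937 genes. It was positive for all 10 genes, *Notch2* and *Notch4* turning when the length and GC trend was removed, meaning a higher *Socs3* cKO level relative to WT at 10 weeks than at 2 weeks. It was called for *Notch3* (3.64, SE 0.97, adjusted p = 0.00835), *Dll1* (1.94, SE 0.39, adjusted p = 0.00207), *Hey1* (1.61, SE 0.26, adjusted p = 0.000525) and *Heyl* (3.29, SE 0.60, adjusted p = 0.00109), with 18.0% of all genes called in that direction, 6.55% in the other and 24.5% in all. At an adjusted p below 0.05 with no limit on size, 9 were higher, beside 34.6% of all genes. Among these 9 was *Notch4*, which passed the filter only through the WT mice at 2 weeks, where it is high. The median interaction was 1.78 for the 10 genes and 0.55 for all genes. *Notch1* (2.39), *Notch2* (1.45), *Notch4* (1.54), *Jag1* (1.63) and *Jag2* (2.69) had adjusted p between 0.0114 and 0.0297, and *Hes1* (0.82, 95% confidence interval −0.25 to 1.88) had an adjusted p of 0.187. Without the first *Socs3* cKO mouse at 2 weeks, 8 of the 10 genes were called, *Jag1* (1.47, adjusted p = 0.0145) and *Hes1* (0.34) being the exceptions. *Notch4* is again in this count. Fits that left out 1 mouse called between 1959 and 4843 of all genes, beside 3417 in the fit of all 15 mice. The count of 4843 was that without the second *Socs3* cKO mouse at 2 weeks. The share of all genes called without the first is not given, so no excess is read from the 8. The *Notch3* call was lost without any 1 of the WT mice at 2 weeks or without WT replicate 1 or 3 or *Socs3* cKO replicate 1, 2 or 3 at 10 weeks, with adjusted p between 0.0152 and 0.0273. Further genes came to be called without WT replicate 2 at 10 weeks (*Notch2* and *Jag1*, adjusted p 0.00932 and 0.00937), without *Socs3* cKO replicate 2 at 2 weeks (*Notch1*, *Notch2*, *Jag1* and *Jag2*, between 0.00163 and 0.00855) or without *Socs3* cKO replicate 4 at 10 weeks (*Notch2* and *Jag1*, 0.00501 and 0.00248).

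With age in WT mice, from 2 to 10 weeks, 6 of the 10 genes were called lower in the same fit, beside 19.4% of all genes called lower, 6.18% higher and 25.5% in either direction. They were the receptors *Notch3* (−3.13, SE 0.71, adjusted p = 0.00268) and *Notch4* (−1.70, SE 0.39, adjusted p = 0.00297, which passed the filter only through the WT mice of 2 weeks, where it is high), the ligands *Jag1* (−1.24, SE 0.34, adjusted p = 0.00806) and *Dll1* (−1.25, SE 0.29, adjusted p = 0.00314), and the targets *Hey1* (−1.36, SE 0.19, adjusted p = 8.50e-05) and *Heyl* (−3.68, SE 0.44, adjusted p = 2.30e-05). The upstream windows of the 4 receptors and ligands among them are those printed above. *Notch1* (−1.54, SE 0.54, adjusted p = 0.0281), *Notch2* (−1.05, SE 0.31, adjusted p = 0.0116) and *Jag2* (−1.91, SE 0.59, adjusted p = 0.0151) were not called, although in each the WT mice of the 2 ages did not overlap. Such groups, lower at 10 weeks, were found for 49.5% of all genes, and the exact permutation test gave p = 0.0571 for each of these 9 Notch genes, the smallest possible. *Hes1* was the exception, at −0.08 (95% confidence interval −0.86 to 0.71, adjusted p = 0.869). The median of all genes was −0.44, and relative to it *Hes1* was 0.36 higher, so no direction is given for *Hes1*. This comparison and that of the genotypes at 2 weeks share the 4 WT mice of 2 weeks, so their values are given side by side and not as independent results. The calls of *Notch3*, *Notch4*, *Jag1* and *Dll1* were lost without WT replicate 1 at 10 weeks (adjusted p between 0.0127 and 0.0256) or replicate 3 (between 0.0142 and 0.0477), and those of *Hey1* and *Heyl* were kept in each fit that left out 1 mouse. *Jag1* also lost its call without any 1 WT mouse at 2 weeks (between 0.0130 and 0.0225), or without *Socs3* cKO replicate 3 or 4 at 2 weeks or 1 or 2 at 10 weeks (between 0.0101 and 0.0111), and *Dll1* without the first WT mouse at 2 weeks (0.0101). *Notch2* came to be called without WT replicate 2 at 10 weeks (0.00924), *Socs3* cKO replicate 2 at 2 weeks (0.00686) or *Socs3* cKO replicate 4 at 10 weeks (0.00756). Without the first *Socs3* cKO mouse at 2 weeks, which enters this comparison only through the pooled spread, 9 of the 10 genes were called lower. That fit called 4519 of all genes in either direction, beside 3559 in the fit of all mice.

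With age in *Socs3* cKO mice, none of the 10 genes was called by limma, at a background of 3.54% of all genes, and none passed an adjusted p below 0.05, which 10.1% of all genes did. The smallest adjusted p were those of *Dll1* (0.69, SE 0.27, adjusted p = 0.117) and *Hes1* (0.74, SE 0.34, adjusted p = 0.181), whose means were higher at 10 weeks. The other 8 ranged from −0.39 for *Heyl* to 0.85 for *Notch1* with adjusted p between 0.283 and 0.775. The intervals were wide, as for *Notch3* with a 95% confidence interval from −0.89 to 1.92.

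**Figure D3:**
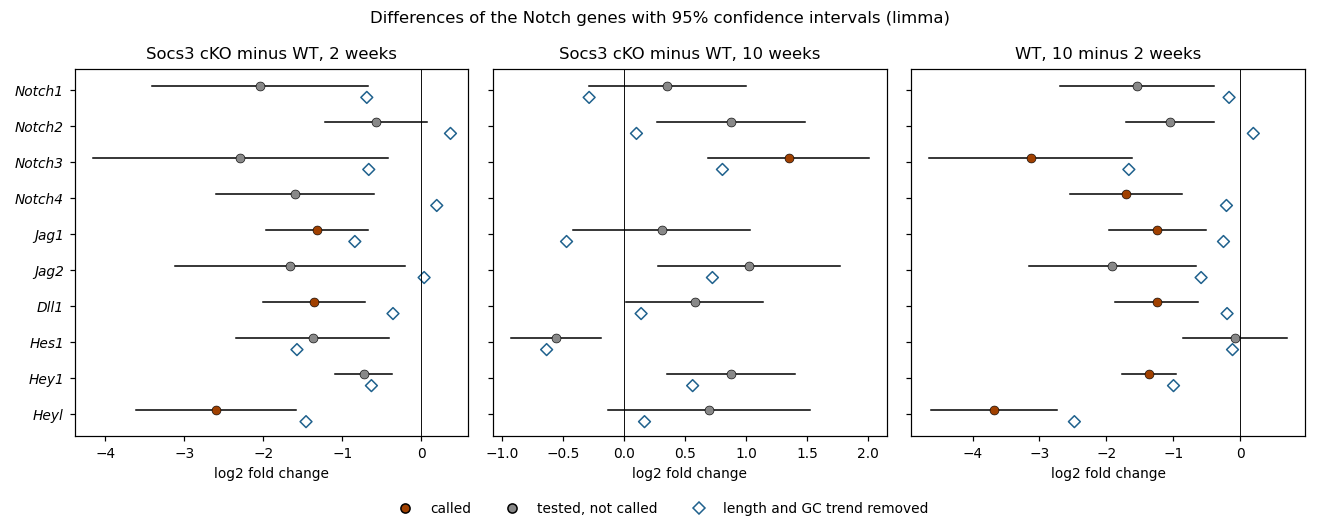
Log2 fold change of each gene with its 95% confidence interval from limma for the genotypes at 2 weeks, the genotypes at 10 weeks and age in WT mice; filled circles are called genes and grey circles tested genes that were not called, and open diamonds are the fold changes after the trend with transcript length and GC content was removed. At 2 weeks the circles lie between −2.60 and −0.57, at 10 weeks only *Notch3* at 1.35 is called, and the diamonds of *Notch2*, *Notch4* and *Jag2* at 2 weeks lie above 0.

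The libraries differed in how their values depended on transcript length and GC content, and the Notch receptors are long and rich in G and C. *Notch1*, *Notch2*, *Notch3* and *Notch4* have 9488, 10506, 8044 and 6591 transcript bases, longer than 98.0%, 98.7%, 96.2% and 92.1% of the genes tested, and a GC content above that of 84.5%, 66.1%, 93.9% and 97.0% of them. *Jag2* is also above 97.0% of genes in GC content, whereas *Hes1* is longer than only 16.5% and is near the middle in GC. In the first *Socs3* cKO mouse at 2 weeks the values fell by 0.765 on the log2 scale for each doubling of length and by 1.91 for each 10 percentage points of GC, relative to the mean of the WT mice at 2 weeks. In the other 3 mice of that group they fell by 0.066 to 0.418 and by 0.61 to 0.729. In *Socs3* cKO mice at 10 weeks, set against the mean of the WT mice at 10 weeks, they rose by 0.084 to 0.397 per doubling of length. They fell there by 0.141 to 0.398 per 10 percentage points of GC. In WT mice at 10 weeks the slopes around that same mean lay between −0.116 and 0.188 for length and between −0.118 and 0.156 for GC. As these mice make up the mean, their slopes give only the spread among them and no trend between WT mice of the 2 ages.

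When this trend was removed in each mouse and the fits were repeated, the 2-week differences were smaller for the long and GC-rich genes and little changed for the short ones. *Notch1* was then −0.69, *Notch3* −0.66, *Jag1* −0.84 and *Dll1* −0.36, and *Notch2* (0.37), *Notch4* (0.20) and *Jag2* (0.04) changed sign. The 3 targets were at −1.57 (*Hes1*), −0.63 (*Hey1*) and −1.46 (*Heyl*), and *Heyl* was the 1 gene still called (adjusted p = 0.000489). When the first *Socs3* cKO mouse at 2 weeks was also left out, a combination chosen after the data were seen, the 2 genes called lower were *Hes1* (−1.07, adjusted p = 0.000346) and *Heyl* (−1.39). With age in WT mice, *Notch3* (−1.66, adjusted p = 0.000409) and *Heyl* (−2.48, adjusted p = 9.98e-07) stayed called after removal of the trend, *Hey1* was −0.996 (adjusted p = 0.000529), and the calls of *Notch4* (−0.20), *Jag1* (−0.25) and *Dll1* (−0.19) were lost, with *Notch2* at 0.20. The interaction stayed called for *Notch3* (1.52), *Hey1* (1.21) and *Heyl* (1.66) and was lost for *Dll1* (0.53). At 10 weeks *Notch3* was 0.81 (adjusted p = 0.0128) and no longer called, and *Notch1* (−0.29) and *Jag1* (−0.47) turned negative. The share of all genes called after removal is not given here for 2 weeks, with or without the first *Socs3* cKO mouse, or for the interaction. No excess over all genes is read from those counts. What part of the differences as deposited comes with length and GC content was not tested beyond these fits.

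Markers of other cells of the ear moved in the same comparisons. Hair follicle genes (9, among them *Krt25*, *Krt27* and *Krt71* of the inner root sheath and *Krt31* and *Krt35* of the shaft) summed to between 1984 and 2879 FPKM in WT mice at 2 weeks, between 11.7 and 58.3 in *Socs3* cKO mice at 2 weeks, between 11.1 and 13.2 in WT mice at 10 weeks and between 8.06 and 72.3 in *Socs3* cKO mice at 10 weeks. All 9 were called lower in *Socs3* cKO mice at 2 weeks and all 9 with age in WT mice, the comparisons in which *Jag1*, *Dll1* and *Heyl* were called. A median of at least 1 FPKM was reached by 9 of them in WT mice at 2 weeks, 6 in *Socs3* cKO mice at 2 weeks and 3 in WT mice at 10 weeks. Those below it in *Socs3* cKO mice passed the filter at 2 weeks only with the WT mice, where they are high. Pericyte and smooth muscle genes summed to between 241 and 258 FPKM in WT and between 182 and 242 in *Socs3* cKO mice at 2 weeks, and to between 95.7 and 131 and between 114 and 172 at 10 weeks. Of the 9 tested, 1 (*Mylk*) was called lower at 2 weeks, 1 (*Rgs5*) higher at 10 weeks and 7 lower with age in WT mice. Endothelial genes summed to between 108 and 124, 85.1 and 103, 54.9 and 56.1, and 64.3 and 96.4 FPKM in WT and *Socs3* cKO mice at 2 weeks and WT and *Socs3* cKO mice at 10 weeks, with 1 of 10 called higher at 2 weeks, 3 of 9 called higher at 10 weeks and 7 of 10 called lower with age in WT mice. Their part in the Notch differences was not tested.

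Set against the mean log2 level of the pericyte and smooth muscle genes, *Heyl* was at −1.03 ± 0.03 in WT mice at 2 weeks and at −3.16 ± 0.13 in WT mice at 10 weeks, −3.02 ± 0.76 in *Socs3* cKO mice at 2 weeks and −2.99 ± 0.67 in *Socs3* cKO mice at 10 weeks. The 4 WT mice at 2 weeks were at −1.08 or above, and no other mouse was above −2.32. *Notch3* relative to the same list was 0.33 ± 0.04, −1.25 ± 0.40, −1.36 ± 1.66 and −0.43 ± 0.48 in the same order. Relative to the endothelial genes, *Heyl* was −0.07 ± 0.05 in WT mice at 2 weeks and between −2.45 and −2.21 in the other 3 group means.

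**Figure D4:**
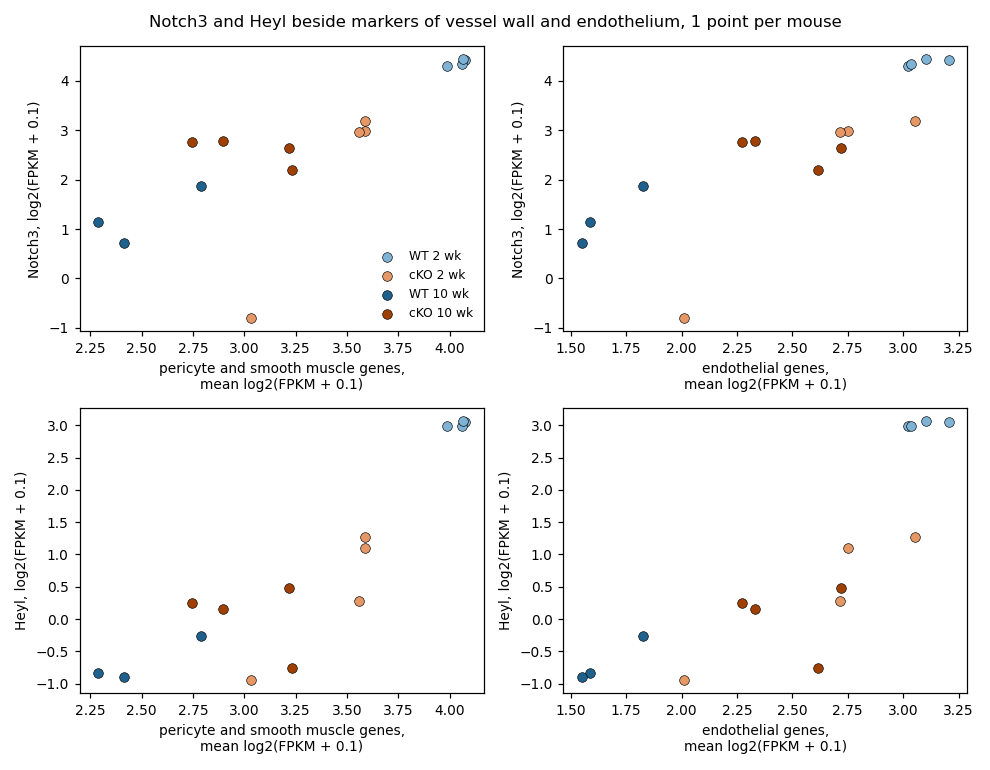
Log2(FPKM + 0.1) of *Notch3* and *Heyl* (vertical axes) against the mean log2(FPKM + 0.1) of the pericyte and smooth muscle genes and of the endothelial genes (horizontal axes), 1 point per mouse, coloured by group. The 4 WT mice at 2 weeks are at the top right, and the first *Socs3* cKO mouse at 2 weeks is the lowest *Notch3* point.

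Of the other lists at 10 weeks, 12 of 12 immediate-early genes and 5 of 5 macrophage genes were called higher in *Socs3* cKO mice. Immediate-early genes, which rise within minutes of a stimulus to cells or tissue, summed to between 1377 and 2059 FPKM in those mice and between 110 and 200 in WT mice. T cell (1 of 4 called higher), basal keratinocyte (1 of 7 higher), suprabasal keratinocyte (1 higher and 1 lower of 7), fibroblast (1 of 6 higher), cartilage (1 of 4 lower) and skeletal muscle genes (1 of 5 lower) had fewer calls at that age. No tested gene of the hair follicle, neutrophil, melanocyte or cell division lists was called then. Only 4 of the 9 hair follicle genes and 3 of the 4 neutrophil genes were tested at 10 weeks. At 2 weeks 3 of 7 suprabasal keratinocyte genes and 3 of 5 skeletal muscle genes were called higher and 2 of 4 cartilage genes lower. Of the 6 fibroblast genes, 3 were called lower and 1 higher at that age, and 1 of 7 basal keratinocyte genes was called higher. Of the T cell genes, 2 of 4 were then called higher and 1 lower. The cartilage gene *Matn1* was at 0 in every mouse of both groups at 2 weeks, and the neutrophil gene *Mpo* in every WT mouse at 2 weeks. None of these lists was tested for a part in the Notch differences.

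A further 43 genes of the pathway were examined by role, as a list made from knowledge of the pathway. At 2 weeks 38 were tested, 3 were called lower in *Socs3* cKO mice and none higher, a share close to the 7.19% of all genes called lower, and their median was −0.82 beside −0.21 over all genes. The 3 were *Dlk1*, a Delta-like protein outside the canonical ligands (−3.81, SE 0.55, adjusted p = 0.00160, from 60.0 to 70.9 FPKM in WT to 1.40 to 11.7 in *Socs3* cKO mice), *Spen*, a corepressor that binds Rbpj (−2.52, SE 0.55, adjusted p = 0.00887), and *Dtx3*, a Deltex ubiquitin ligase (−2.60, SE 0.49, adjusted p = 0.00494). Of the other roles, none of the 10 genes of receptor cleavage, the 4 of sugar modification and the 4 other targets tested was called. *Nrarp*, a target that restrains Notch in a feedback loop, was 28.5, 32.8, 31.3 and 35.0 FPKM in WT and 4.63, 14.8, 27.1 and 25.9 in *Socs3* cKO mice.

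At 10 weeks 5 of 35 pathway genes were called higher in *Socs3* cKO mice and none lower, beside 12.5% of all genes called higher, with a median of 0.41 beside 0.31 over all genes. *Numb*, an inhibitor of the receptors that acts in endocytosis, was 0.727, 3.59 and 0.805 FPKM in WT and 13.0, 14.6, 13.4 and 8.83 in *Socs3* cKO mice (log2 fold change 3.14, SE 0.47, adjusted p = 0.00150). *Mib1*, a ubiquitin ligase that ligands need to signal, was 1.44, 1.79 and 0.565 in WT and 5.63, 6.30, 6.86 and 3.45 in *Socs3* cKO mice (2.14, SE 0.38, adjusted p = 0.00318). For both, no WT mouse reached the lowest *Socs3* cKO mouse. The coactivators *Maml1* (1.39, adjusted p = 0.00394) and *Maml3* (1.51, adjusted p = 0.00895) and the endothelial ligand *Dll4* (1.41, adjusted p = 0.00451) were the other 3. *Dll4* was between 0.724 and 1.39 FPKM in WT mice. The count of 5 includes *Numb*, *Mib1* and *Dll4*, which passed the filter at 10 weeks only through the *Socs3* cKO mice, where they are high.

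With age in WT mice 11 of 38 pathway genes were called lower, beside 19.4% of all genes, with a range from −4.32 for *Dlk1* and −3.85 for *Numb* to −1.07 for *Dll4*, and 1 higher, the gamma-secretase subunit *Psenen* (1.02, SE 0.22, adjusted p = 0.00208), beside 6.18%. In the nuclear complex the corepressor gene *Spen* (−2.82) and the coactivator genes *Maml3* (−2.24) and *Maml1* (−1.59) were called lower. In the interaction 9 of the 38 were called higher, beside 18.0% of all genes, led by *Numb* (4.49) and *Dlk1* (4.22), and *Psenen* lower (−1.12). With age in *Socs3* cKO mice none of the 38 was called by limma, beside 3.54% of all genes. The median of the 38 genes with age in WT mice was −0.70, beside −0.44 over all genes.

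**Figure D5:**
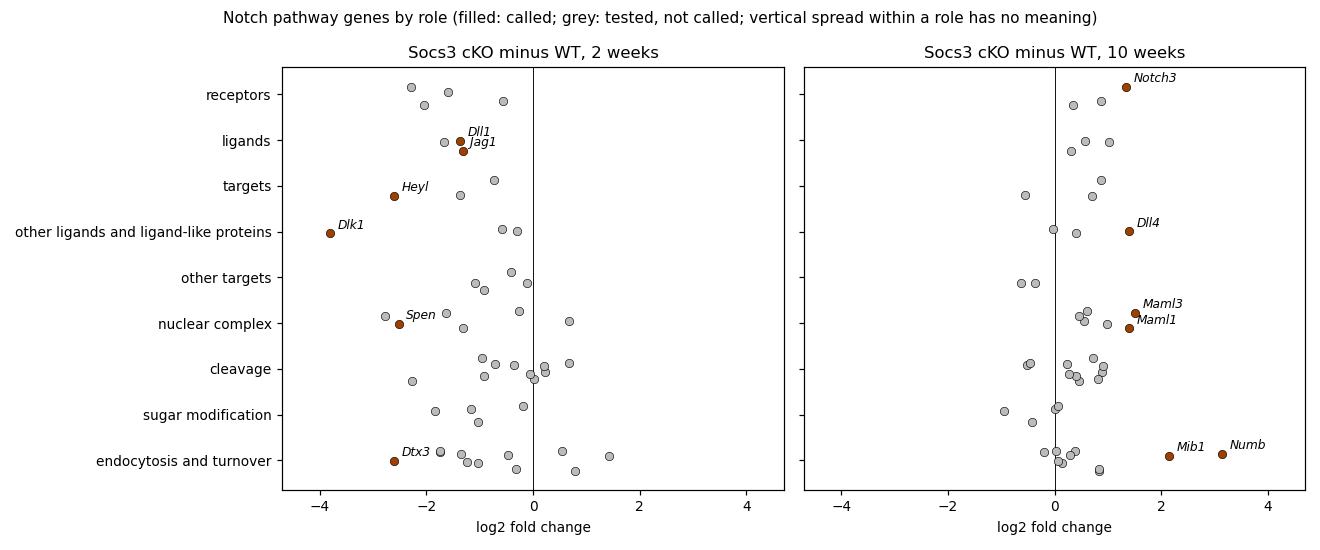
Log2 fold change between the genotypes at 2 and at 10 weeks for the tested genes of each Notch pathway role, with called genes filled and named; the vertical spread within a role carries no meaning. At 2 weeks the called genes lie to the left, down to −3.81 for *Dlk1*, and at 10 weeks to the right, up to 3.14 for *Numb*.

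The genes whose levels were most like those of the members called with age in WT mice were sought among 13937 genes by Pearson's r of the log2 values over the 15 mice. The differences between the 4 groups are part of these coefficients, which are given as a description. Closest to *Notch3* were *Cxxc1* (r = 0.990), *Rab15* and *Tcf25*, closest to *Notch4* was *Col7a1* (0.990), closest to *Jag1* was *Tacc2* (0.976), closest to *Dll1* was *Ulk1* (0.985) and closest to *Heyl* was *Enc1* (0.982). *Hey1* had the least close neighbour, *Adcy2* (0.941). Within the 10 genes, *Notch3* and *Jag2* (0.965) and *Jag1* and *Dll1* (0.949) had the highest coefficients, and the least close pair was *Hes1* and *Hey1* (0.202). Among all genes, *Jag2* ranked 137 in likeness to *Notch3*, and *Notch3* 71 to *Jag2*. *Dll1* ranked 58 in likeness to *Jag1*, and *Jag1* 166 to *Dll1*, so many other genes were closer. The first *Socs3* cKO mouse at 2 weeks, with the steepest length and GC trend, is among the 15 mice.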

How the data were processed

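Single reads of 50 bases were aligned by the authors to mm9 with TopHat2 2.1.0, and Cufflinks is named in the submitters' processing notes. The authors deposited 1 FPKM value per gene and mouse, and their edgeR test was not repeated here, since read counts were not used. Further wild-type mice that the study describes were not analysed here. Groups came from the sample titles. FPKM was taken as log2(FPKM + 0.1), genes with at least 1 FPKM in at least 3 of the mice fitted were kept, and limma 3.58.1 in R 4.3.3 was fitted with a mean-variance trend, per age for the genotypes and over all 4 groups for the interaction and for age. P-values were adjusted over all genes tested (Benjamini-Hochberg). The genotype fits were run on simulated data with independent noise and large planted changes. Those data held neither the length and GC trends nor an outlying library, so no conclusion about these mice is drawn from them. Depth was estimated from FPKM times transcript length in kilobases. The most frequent of these products between 0.04 and 0.25 was taken as the level of a single read. The counting error was not derived. Transcript length and GC content, taken from GENCODE for 92.1% of genes, were fitted per mouse with splines of 4 degrees of freedom. The pathway and marker lists and the members were chosen with earlier results of these data known. Named pathway genes are among those called, and 1 gene is not reported here. Genes named for likeness are the closest of each called member. Sample codes run in a separate range for each group, so a batch of library making and the group cannot be told apart. Nothing states whether mice were littermates, and p-values measure the spread between these mice.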

Additional observations from a re-analysis of the deposited data

Results flagged for a closer look

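A total of 4 values lay far from the rest of their group of 4 mice, judged by the gap to the nearest mouse divided by the range of the log2 values. In the first *Socs3* cKO mouse at 2 weeks this was so for *Notch3* (0.945), *Notch4* (0.881) and *Jag2* (0.966), and in the fourth *Socs3* cKO mouse at 10 weeks for *Dll1* (0.861). Among 30 gene and group combinations of 4 mice that were examined, chance gives about 1 in 20. The first 3 share 1 library, the one with the steepest dependence on transcript length and GC content. In 4 genes the genotype difference itself differed between 2 and 10 weeks by the interaction test: *Notch3* (3.64), *Dll1* (1.94), *Hey1* (1.61) and *Heyl* (3.29) on the log2 scale.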

How the results depend on the processing

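At 2 weeks 1951 genes and 3 Notch genes were called, and at 10 weeks 1957 and 1. With the replicate number as a block these became 751 and 0 at 2 weeks and 1899 and 2 at 10 weeks, but same-numbered mice of the 2 genotypes did not deviate together (mean r −0.002 at 2 weeks and −0.117 at 10 weeks), so the numbers were not taken to pair them. Of the other group pairs, WT at 10 weeks and *Socs3* cKO at 2 weeks, which enter together only in the fits of all 4 groups, had r between 0.129 and 0.232. An adjusted p below 0.05 with no fold limit gave 6479 genes and 8 Notch genes lower at 2 weeks, 4931 with 4 higher and 1 lower at 10 weeks, 6556 and 9 in the interaction, 7077 with age in WT and 1406 with age in *Socs3* cKO mice. One fit of all 4 groups gave 3300 genes and 6 Notch genes at 2 weeks and 0 Notch genes at 10 weeks. At 10 weeks 0 were also called with no filter, with quantile normalization and with the length and GC trend removed (1279 genes). A pseudocount of 1 gave 7 Notch genes in the interaction. Median-of-ratios scaling gave 3 with age in WT mice, trend removal 2295 genes and 2 Notch genes, and a fit of only the *Socs3* cKO mice 146 genes with age. Trend removal left 1 Notch gene at 2 weeks. Where no count of all genes stands beside a count of Notch genes, no excess over all genes is read from it.

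Signs turned under trend removal for *Notch2* (0.37), *Notch4* (0.20) and *Jag2* (0.0357) at 2 weeks, *Notch1* (−0.29) and *Jag1* (−0.47) at 10 weeks, *Notch2* (−0.22) and *Notch4* (−0.67) in the interaction, *Notch2* (0.20) with age in WT, and *Notch2* (−0.0239) and *Notch3* (−0.15) with age in *Socs3* cKO mice. With the first *Socs3* cKO mouse at 2 weeks also left out they were *Notch2* 0.27, *Notch4* 0.0382 and *Jag2* 0.18, then *Notch2* −0.12 and *Notch4* −0.52, then *Notch3* −0.52 and *Jag2* −0.0164. Quantile normalization turned *Notch1* (−0.0143) and *Jag1* (−0.10) at 10 weeks and *Hes1* (0.10) with age in WT, and median-of-ratios scaling turned *Hes1* (0.31). The causes were not tested.

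Leaving out 1 mouse gave 859 to 3348 genes and 0 to 6 Notch genes at 2 weeks, 745 to 2665 and 0 to 2 at 10 weeks, 1959 to 4843 and 3 to 8 in the interaction, 2205 to 4519 and 2 to 9 with age in WT, and 300 to 700 genes with age in *Socs3* cKO mice. It turned the change with age in *Socs3* cKO mice for *Notch3* (range −0.45 to 0.883) and *Notch4* (range −0.65 to 0.0359). The share of calls that were higher moved from 83.7% to 62.4% (median-of-ratios) and 53.6% (quantile) at 10 weeks, from 73.3% to 52.0% and 47.0% in the interaction, and from 24.2% to 47.6% and 49.7% with age in WT mice.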
